A study of Mus musculus with 12 samples.

Results

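Cytochrome P450 enzymes (P450s) are haem proteins that insert 1 oxygen atom from molecular oxygen into fatty acids, sterols, steroids, retinoids and foreign compounds. The 88 P450 genes described here are all gene symbols of the deposited tables made of Cyp, a family number, a subfamily letter and a gene number. Cyp1a1, Cyp1a2, Cyp1b1, Cyp24a1 and Cyp27b1 were left out beforehand, and symbols that end in a further letter, such as Cyp4a12a, do not match this form. The 88 genes are part of 24421 symbols, fall into 34 subfamilies of 14 families, and each stands for its transcript of highest summed counts. RNA-seq libraries were made from kidneys of 12 male C57BL/6 mice at 6 weeks old, in 4 groups of 3 mice. WT and Tet2-/- mice without an operation gave the baseline groups. WT and Tet2-/- mice that underwent ischemia-reperfusion (IR) gave the other two groups: the right renal pedicle was clamped for 60 min, the left kidney was removed, and the kidney was taken 24 h after the operation. Tet2 encodes a dioxygenase that oxidizes methylcytosine in DNA. No sham-operated library is among the 12, so every difference between IR and baseline also holds the surgery and the loss of the other kidney.

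P450s of the endoplasmic reticulum take electrons from P450 oxidoreductase (Por) and cytochrome b5, and those of mitochondria from ferredoxin. In the kidney most of them reside in the proximal tubule. Members of the Cyp2j and Cyp2c subfamilies turn arachidonic acid into epoxides, which act on vascular tone and sodium transport, whereas the Cyp4a and Cyp4f subfamilies hydroxylate fatty acids and leukotrienes at the omega end. Cyp7b1 and Cyp27a1 hydroxylate oxysterols and cholesterol, and the Cyp2a, Cyp2d and Cyp2e subfamilies act on steroids, drugs and small foreign molecules. Cyp4a genes are classical targets of the fatty acid receptor PPARalpha, and several Cyp2 and Cyp4 genes of the mouse kidney depend on androgen.

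The libraries held 51007362 to 107969879 counts on these transcripts, of which P450 genes took 0.288% to 1.196%. Tet2 itself had an FPKM of 9.15, 6.25 and 7.33 in WT baseline replicates 1 to 3 and of 9.24, 16.6 and 10.3 in the baseline replicates labelled Tet2-/-, so the transcript was not lower there. After IR it was 9.34, 3.97 and 3.85 in WT and 2.64, 3.20 and 1.76 in the libraries labelled Tet2-/-. The genotype difference was 0.76 on the log2 scale at baseline (adjusted p = 0.320) and −1.28 after IR (adjusted p = 0.0690). With IR, Tet2 fell by 2.52 in the libraries labelled Tet2-/- (adjusted p = 0.000520), and its interaction was −2.002 (adjusted p = 0.0285). A link of the Tet2 level to the P450 genes was not tested. Because Tet2 was not lower there at baseline, the groups are called the libraries labelled Tet2-/-, and each direction follows these labels. The 15 proximal tubule markers were abundant in every library, and their summed FPKM was 7559 to 9775 at WT baseline, 8521 to 9636 at labelled Tet2-/- baseline, 5132 to 7744 in WT IR and 1942 to 3786 in labelled Tet2-/- IR. The 9 liver markers summed to 39.8 to 243 FPKM, with Ahsg and Tat under 0.1 in every library, and the 6 adrenal cortex markers to 4.99 to 17.8 FPKM, with Mc2r under 0.1 in every library.

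Cyp4b1, which hydroxylates medium-chain fatty acids and some toxins, and Cyp2e1, which oxidizes ethanol and acetone, were the most abundant P450 transcripts of the resting kidney. Cyp4b1 (NM_007823, mm9 chr4:115297333-115320310) had an FPKM of 1399, 1283 and 1446 in the 3 WT baseline libraries and of 775, 976 and 1505 in those labelled Tet2-/-. Cyp2e1 (NM_021282, mm9 chr7:147949731-147960876) had 1157, 1099.9 and 1183 and 776, 869 and 1171 in the same libraries. Together both genes made up 48.2% to 67.8% of the summed P450 FPKM of the 6 baseline libraries. Cyp4b1 exceeded Cyp2e1 in every WT baseline library, while in labelled Tet2-/- replicate 1 both stood side by side. Cyp2j5, the main arachidonic acid epoxygenase of the mouse kidney, followed at 345 ± 69.7 FPKM (mean ± SD, n = 3) in WT baseline. Its range of 266 to 396 overlapped that of Cyp2a4, a testosterone hydroxylase, at 278 ± 86.4 (n = 3). Cyp2d9, a testosterone hydroxylase of male mice, and Cyp7b1, an oxysterol hydroxylase, came next at 159 ± 33.0 and 136 ± 8.23 (n = 3 each), and their ranges overlapped as well. Cyp2j13, Cyp2j11, Cyp4a10 and Cyp4a31 formed a further tier with means of 86.5, 76.4, 66.0 and 65.5 FPKM and overlapping libraries. Thus 10 of the 88 genes reached a group mean of 100 FPKM in some group, 19 reached 10 and 34 reached 1.

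**Figure D1:**
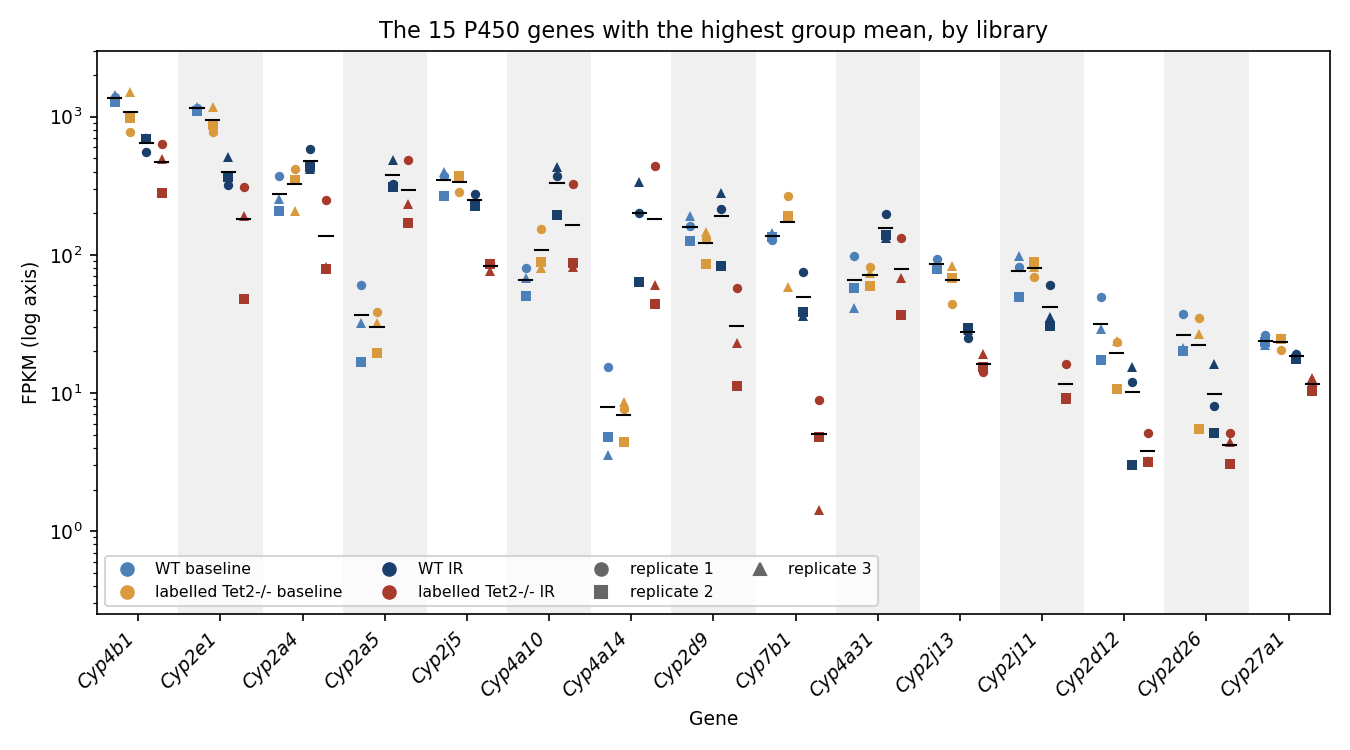
FPKM on a log axis of the 15 P450 genes with the highest group mean, 1 point per library, with group colours, replicate shapes and a bar at each group mean (n = 3). Cyp4b1 and Cyp2e1 lead at baseline, Cyp4a14 and Cyp2a5 lie higher after IR in both genotypes, and Cyp7b1 ends at 1.41 to 8.84 FPKM in the libraries labelled Tet2-/-.

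Large branches of the superfamily were nearly silent. Of 88 genes, 36 were tested in no comparison because of low counts, their highest group mean was 0.0750 FPKM, and 9 had no count in any library, which allows up to 3 counts in each. In the Cyp2c subfamily 13 of 15 genes were in this set, in Cyp3a 6 of 7, and both Cyp11b genes were. Cyp11a1, the first enzyme of steroid synthesis, reached 0.0363 FPKM in the highest group mean, and Cyp17a1 and Cyp21a1 reached 0.276 and 0.213. The only Cyp2c gene at 1 FPKM or more in a group was Cyp2c44, an epoxygenase of the kidney.

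Between the baseline groups no P450 gene was called in either direction, where a call needs both an adjusted p below 0.05 and a change of more than 1 log2 unit. Of 50 genes tested, 0 were called higher and 0 lower by edgeR's quasi-likelihood test, against 0.0124% and 0.0% of all 16086 genes tested. DESeq2 called 1, Cyp4f15, as lower. Against 1891 of all 16086 genes tested, 4 of the 50 P450 genes had an unadjusted p under 0.05 with edgeR. These were Cyp4f15 (log2 fold change −1.02, standard error 0.23, adjusted p = 0.224), Cyp4f13 (log2 fold change 0.33, standard error 0.13, adjusted p = 0.394), Cyp4a10 (log2 fold change 0.79, standard error 0.28, adjusted p = 0.352) and Cyp46a1 (log2 fold change 1.01, standard error 0.42, adjusted p = 0.416). They are named because of their values. The median log2 difference was −0.04 over the P450 genes and 0.00 over all genes. The libraries of both genotypes did not overlap for 2 P450 genes that were higher and 4 that were lower in the libraries labelled Tet2-/-, against 7.93% and 10.8% of all genes. Cyp7b1 spread widely in the labelled group, with 265, 192 and 58.2 FPKM against 128, 135 and 145 in WT.

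IR in WT kidneys raised 4 P450 genes and lowered 4 of 49 tested, or 4 in each direction, against 1.46% higher and 0.887% lower among all 16015 genes, 2.35% in both directions. The genes that rose were Cyp4a14 and Cyp4a10, both fatty acid omega-hydroxylases, Cyp2a5, the coumarin hydroxylase, and Cyp2s1, an enzyme mainly found outside the liver. The genes that fell were Cyp4b1 and Cyp2e1, the most abundant P450s of the resting kidney, the epoxygenase family gene Cyp2j13, and Cyp7b1. The median over the P450 genes was 0.05 on the log2 scale and that over all genes −0.03. The libraries of both groups, as TMM-scaled counts, did not overlap for 9 higher and 13 lower P450 genes, against 14.8% and 14.5% of all genes. The counts of calls rest on single libraries. They were 2, 1 and 0 higher without WT baseline replicate 1, 2 or 3, and 3, 2 and 1 without WT IR replicate 1, 2 or 3. The lower calls numbered 1 without WT baseline replicate 1, 2 or 3, and 3, 1 and 2 without WT IR replicate 1, 2 or 3. Without 1 library a group has 2 mice left. Cyp2j13 alone kept its call in all 13 alternatives. Cyp4a14 and Cyp4b1 lost it without any 1 of the 6 libraries, at 3.94 to 5.57 and at −1.26 to −1.02, whereas Cyp2s1 lost it only without WT baseline replicate 3, at 1.81. Cyp4b1 also lost it in the fit of all 12 libraries. Cyp7b1 lost it in 6 of 13 alternatives, Cyp2e1 in 5, and Cyp2a5 and Cyp4a10 in 4 each. Over all 13 their log2 fold changes were −1.91 to −1.32, −1.86 to −1.42, 2.99 to 3.89 and 1.98 to 2.60. In bulk tissue, fewer cells of a type and less RNA per cell cannot be told apart.

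Cyp4a14 (NM_007822, mm9 chr4:115158805-115168746) had 15.5, 4.80 and 3.53 FPKM at WT baseline and 201, 63.4 and 336 in WT IR. The groups did not overlap, although the WT IR libraries spread widely, with replicate 2 lowest. It was 24.8-fold higher (log2 fold change 4.63, standard error 0.85, adjusted p = 0.0400). Cyp4a10 (NM_010011, mm9 chr4:115190892-115206254) had 80.7, 49.9 and 67.6 FPKM at baseline and 370.2, 194 and 432 after IR (log2 fold change 2.28, standard error 0.36, adjusted p = 0.0271), with replicate 2 lowest again. Its neighbours Cyp4a31 and Cyp4a32 had log2 fold changes of 1.18 (adjusted p = 0.0976) and 1.03 (adjusted p = 0.227). With the replicate number as a block both passed, at 1.26 (adjusted p = 0.0140) and 1.11 (adjusted p = 0.0205).

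Cyp2a5 (NM_007812, mm9 chr7:27620358-27628283) had 60.2, 16.9 and 32.1 FPKM at WT baseline and 327, 311 and 489 in WT IR. Every IR library lay far above the highest baseline one, and the fit gave a 9.999-fold rise (log2 fold change 3.32, standard error 0.50, adjusted p = 0.0239). Its near-copy Cyp2a4 (NM_009997, mm9 chr7:27092211-27100107) had 374, 206 and 253 and then 582, 430.5 and 417, a log2 fold change of 0.71 (adjusted p = 0.162). The ratio of Cyp2a5 to Cyp2a4 was 0.0564 to 0.161 in the 6 baseline libraries, 0.561 to 1.17 in WT IR and 1.93 to 2.87 in labelled Tet2-/- IR.

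How far these near-copies can be told apart depends on the reads that span the bases in which they differ. The coding sequences of Cyp2a4 and Cyp2a5 differ at 23 of 1485 bases (98.5% identical), and 38.1% of the 50-base windows of either gene occur in the other. Cyp4a10 is 96.6% identical to Cyp4a31 and 97.2% to Cyp4a32, while it is 75.4% identical to Cyp4a14, which shares no 50-base window with another gene. The windows below, coding bases 596 to 655 of the Cyp2a pair and 106 to 165 of the Cyp4a pair (GENCODE transcripts on mm9, 5′ to 3′), show the differing bases in capitals, 4 of 60 and 6 of 60.
Cyp2a4: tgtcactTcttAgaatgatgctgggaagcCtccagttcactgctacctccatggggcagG
Cyp2a5: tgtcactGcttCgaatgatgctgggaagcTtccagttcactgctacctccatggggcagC
Cyp4a10: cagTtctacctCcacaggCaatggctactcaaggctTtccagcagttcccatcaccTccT
Cyp4a31: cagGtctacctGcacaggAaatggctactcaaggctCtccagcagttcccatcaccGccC
How the counting placed reads shared by near-copies was not given in the sources used here, so levels of single genes within these pairs are uncertain. The sum of both Cyp2a genes does not depend on how shared reads were split between them, but it does on whether such reads were counted. It was 434, 223 and 285 FPKM at WT baseline, 909, 742 and 907 in WT IR, 456, 367 and 241 at labelled Tet2-/- baseline and 731, 249 and 313 in labelled Tet2-/- IR. The WT IR libraries all lay above the WT baseline ones, whereas the labelled Tet2-/- groups overlapped. For Cyp4a10, Cyp4a31 and Cyp4a32 together the sum was 184, 109 and 115 at WT baseline, 576, 339 and 576 in WT IR, 241, 153 and 158 at labelled Tet2-/- baseline and 467, 126 and 153 in labelled Tet2-/- IR, where replicate 1 alone lay above the baseline range.

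**Figure D2:**
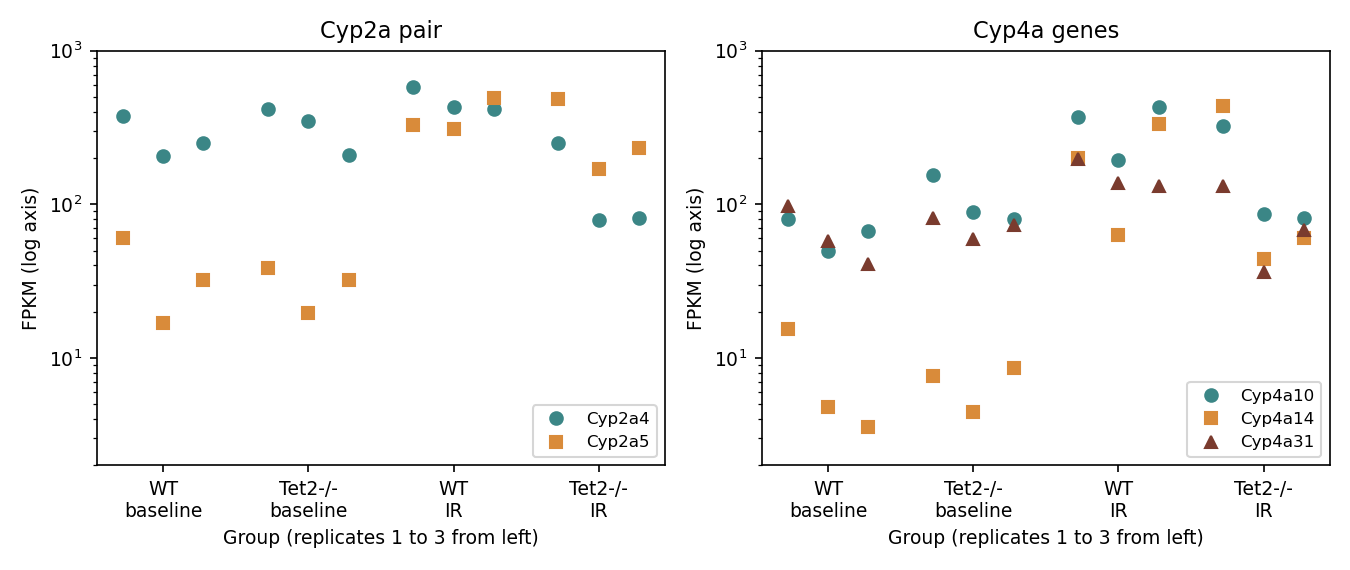
FPKM on a log axis of Cyp2a4 and Cyp2a5 (left) and of Cyp4a10, Cyp4a14 and Cyp4a31 (right), 1 point per library, with replicates 1 to 3 of each group from left. Cyp2a5 lies under Cyp2a4 in all 6 baseline libraries and above it in all 3 labelled Tet2-/- IR libraries, and labelled Tet2-/- IR replicate 1 lies above replicates 2 and 3 for all 5 genes.

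Cyp4b1 fell from 1399, 1283 and 1446 FPKM at WT baseline to 554, 689 and 699 in WT IR (log2 fold change −1.15, standard error 0.19, adjusted p = 0.0332). Cyp2e1 went from 1157, 1099.9 and 1183 to 321, 365 and 506, a 2.98-fold fall (log2 fold change −1.58, standard error 0.25, adjusted p = 0.0265). Both groups of libraries were far apart for either gene, and the share of these genes in the summed P450 FPKM was 26.1% to 38.8% in WT IR. Cyp7b1 (NM_007825, mm9 chr3:17971950-18143338) fell to 74.8, 38.8 and 35.8 FPKM (log2 fold change −1.53, standard error 0.27, adjusted p = 0.0365), with replicate 1 highest. Cyp2j13 (NM_145548, mm9 chr4:95709351-95744231) went from 93.9, 79.3 and 86.2 to 25.05, 29.6 and 28.7 (log2 fold change −1.70, standard error 0.15, adjusted p = 0.00767), with little spread in either group. Cyp2s1 (NM_028775, mm9 chr7:26587495-26601549) rose from 5.49, 3.33 and 3.99 to 14.9, 17.3 and 15.8 FPKM (log2 fold change 1.84, standard error 0.20, adjusted p = 0.0106). In the fit blocked by replicate number the Cyp2d genes Cyp2d12 and Cyp2d26 passed as lower too, at −1.88 (adjusted p = 0.0197) and −1.60 (adjusted p = 0.0459), against −1.69 (adjusted p = 0.178) and −1.44 (adjusted p = 0.145) without the block. Among all genes in this comparison 0.887% were called lower and 1.46% higher. Here 2 of 15 proximal tubule markers and none of 8 markers of other nephron segments were called lower, and 3 of 4 tubular injury markers higher. Their part in the P450 changes was not tested.

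IR in the libraries labelled Tet2-/- lowered 19 and raised 6 of 49 P450 genes tested, against 11.6% lower and 12.7% higher among all 16358 genes, 24.3% in both directions. The median over the P450 genes was −0.80 on the log2 scale and that over all genes 0.04. The 19 lower genes held 5 of 7 Cyp2j genes, the epoxygenase Cyp2c44, 3 Cyp2d genes, both Cyp4f14 and Cyp4f15, and the sterol enzymes Cyp7b1, Cyp27a1 and Cyp46a1, besides Cyp4b1, Cyp2e1, Cyp2a4, Cyp2b23 and the retinoic acid hydroxylase Cyp26a1. The 6 higher genes were Cyp4a14, Cyp2a5, Cyp2s1, Cyp4v3, Cyp3a13 and Cyp4f18. Groups did not overlap for 24 lower and 10 higher P450 genes, against 27.2% and 29.5% of all genes. Without TMM scaling, that is with library sizes alone, the calls were 10 higher and 16 lower, that is 38.5% higher among the called genes against 24%. That scaling moved the median of all genes to 0.27, and the P450 median was −0.88 relative to it, against −0.85 in the TMM fit. The medians of all genes became 0.14 and 0.24 for the genotype difference after IR and the interaction described further on, and the P450 medians relative to them were −0.83 and −0.73. With limma on log2(FPKM + 1), which understates changes of low genes, 9 were lower. Cyp27a1, Cyp2c44 and Cyp4f14 were not called there, at −0.96, −0.62 and −0.85. Cyp27a1 was not a low gene, with 20.5 to 25.2 FPKM at labelled Tet2-/- baseline and 10.3 to 12.8 after IR. Why these calls were lost was not tested. The fit blocked by replicate number added Cyp2d10 at −2.18 (adjusted p = 0.0151) and Cyp2b9 at −2.18 (adjusted p = 0.0156). In the same comparison 11 of 15 proximal tubule markers were called lower, with a median log2 fold change of −1.91, and their part in the P450 changes was not tested. Leaving out 1 library gave 13 to 20 lower and 5 to 8 higher genes.

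Among the sterol enzymes, Cyp7b1 had the steepest fall of any P450 gene tested, from 265, 192 and 58.2 FPKM at labelled Tet2-/- baseline to 8.84, 4.83 and 1.41 after IR. The groups lay far apart although replicate 3 was the lowest in each, and the fit gave a 41.0-fold fall (log2 fold change −5.36, standard error 0.81, adjusted p = 0.00187). Cyp27a1, a mitochondrial sterol hydroxylase (NM_024264, mm9 chr1:74760109-74784471), went from 20.5, 24.4 and 25.2 to 11.5, 10.3 and 12.8 FPKM (log2 fold change −1.27, standard error 0.17, adjusted p = 0.00103). Cyp46a1, a cholesterol hydroxylase of the brain, had 2.23, 1.36 and 1.12 and 0.599, 1.27 and 0.849 FPKM (log2 fold change −1.05, standard error 0.36, adjusted p = 0.0480), with overlapping groups. In the blocked fit it was at −1.04 (adjusted p = 0.0624), and its call was lost in 10 of 13 alternatives, at −1.24 to −0.42. Cyp39a1, an oxysterol hydroxylase, was at −0.24 (adjusted p = 0.470).

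The epoxygenases had a common direction. All 7 Cyp2j genes had a negative log2 fold change, between −3.05 and −0.32, and 5 were called. Cyp2j5 (NM_010007, mm9 chr4:96294123-96330810) went from 285, 375 and 357 FPKM to 87.7, 85.9 and 76.7 (log2 fold change −2.28, standard error 0.20, adjusted p = 0.000251). The 3 IR libraries lay close together and far under the lowest baseline one. Cyp2j11 (NM_001004141, mm9 chr4:95961199-96015371) went from 69.1, 88.05 and 81.7 to 16.3, 9.20 and 9.04 (log2 fold change −3.05, standard error 0.27, adjusted p = 0.000261). Cyp2j13 had 44.3, 68.5 and 83.1 and 14.2, 15.3 and 19.1 FPKM (log2 fold change −2.27, standard error 0.28, adjusted p = 0.000810). Cyp2j6 and Cyp2j9 were not called, at −0.32 (adjusted p = 0.148) and −0.80 (adjusted p = 0.129). Cyp2c44 (NM_001001446, mm9 chr19:44079512-44103737) fell from 0.974, 0.731 and 0.895 to 0.141, 0.223 and 0.265 FPKM (log2 fold change −2.30, standard error 0.36, adjusted p = 0.00215).

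Among the hydroxylases of foreign compounds and steroids, Cyp2e1 fell to 310.2, 47.5 and 189.7 FPKM (log2 fold change −2.60, standard error 0.63, adjusted p = 0.0137), with replicate 2 far under replicate 1. Cyp2d9 (NM_010006, mm9 chr15:82282807-82287257) fell from 130.4, 85.8 and 147 to 57.8, 11.3 and 22.9 FPKM (log2 fold change −2.22, standard error 0.57, adjusted p = 0.0162). Cyp2d12 and Cyp2d26 were at −2.59 (adjusted p = 0.00124) and −2.65 (adjusted p = 0.0111), and both were called. Cyp2a4 was called lower, from 418, 347 and 209 to 249, 79.1 and 81.0 FPKM (log2 fold change −1.50, standard error 0.49, adjusted p = 0.0417), a call that was lost with library sizes alone, with limma on log2(FPKM + 1) and without labelled Tet2-/- baseline replicate 1 or 2 or IR replicate 2 or 3, at −1.45 to −1.18. Cyp2a5 rose, from 38.4, 19.6 and 32.1 to 482, 170.1 and 232 FPKM (log2 fold change 3.05, standard error 0.45, adjusted p = 0.00169). Cyp2s1 rose to 22.2, 24.1 and 10.7 FPKM (log2 fold change 1.83, standard error 0.26, adjusted p = 0.00152). Cyp2b10, a target of the xenobiotic receptor CAR, had 9.48, 0.535 and 1.01 FPKM after IR and 0.336, 0.306 and 0.580 before. Its log2 fold change of 2.92 (adjusted p = 0.0549) was 0.68 without replicate 1 (adjusted p = 0.321). It passed in 6 of 13 alternatives, with adjusted p-values of 0.0181 to 0.321 over the 13. These 6 were DESeq2, library sizes alone, no filter on low counts, all 12 libraries in 1 fit, and the fits without IR replicate 2 or 3. Cyp2f2, known from naphthalene metabolism in the lung, was at −0.31 (adjusted p = 0.643) and Cyp20a1, an enzyme without a known substrate, at 0.50 (adjusted p = 0.0253). The retinoic acid hydroxylase Cyp26b1 was at 0.16 (adjusted p = 0.788).

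The omega-hydroxylases were split. Cyp4a14 rose from 7.69, 4.44 and 8.62 FPKM to 438, 44.2 and 60.6 (log2 fold change 4.46, standard error 0.94, adjusted p = 0.00757), and replicate 1 stood far above the other replicates. Without replicate 1 the log2 fold change was 2.67, still called. Cyp4a10 had 325, 87.0 and 81.6 FPKM after IR and was not called (log2 fold change 0.36, standard error 0.55, adjusted p = 0.620), with replicate 1 above and the others within the baseline range. Cyp4b1 fell to 637, 282 and 492 FPKM (log2 fold change −1.45, standard error 0.40, adjusted p = 0.0223). This call was lost without labelled Tet2-/- baseline replicate 3, at −1.12. Cyp4f14, a leukotriene B4 omega-hydroxylase (NM_022434, mm9 chr17:33042015-33054032), fell from 1.21, 0.951 and 0.978 to 0.168, 0.113 and 0.123 FPKM (log2 fold change −3.20, standard error 0.32, adjusted p = 0.000395). Cyp4v3, the mouse counterpart of a fatty acid omega-hydroxylase of the human eye, rose from 1.27, 1.05 and 0.912 to 3.95, 4.40 and 4.19 FPKM (log2 fold change 1.70, standard error 0.19, adjusted p = 0.000538). It shares exon bases with Klkb1 on the same strand.

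**Figure D3:**
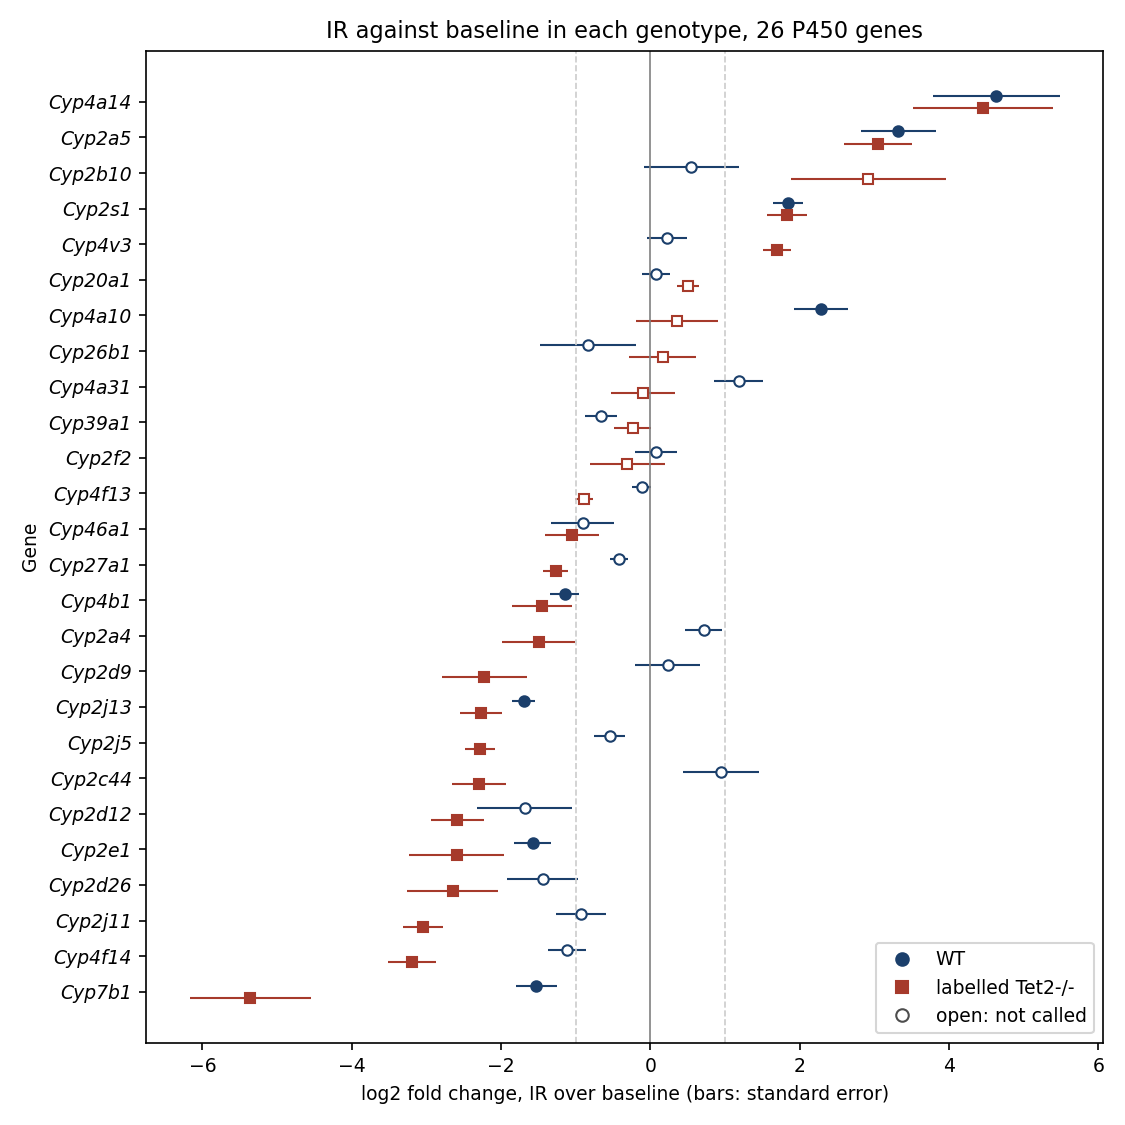
Log2 fold change of IR over baseline with its standard error for 26 P450 genes, in WT (circles) and in the libraries labelled Tet2-/- (squares), where filled symbols were called and open ones were not (dashed lines at −1 and 1). Cyp4a14, Cyp2a5 and Cyp2s1 are called higher in both, and Cyp7b1 lies at −1.53 in WT and at −5.36 in the libraries labelled Tet2-/-.

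After IR the libraries labelled Tet2-/- had 5 P450 genes lower and 2 higher than WT of 45 tested, against 3.85% and 2.30% of all 16186 genes, 6.15% in both directions. The 5 lower genes were Cyp7b1, the epoxygenases Cyp2c44, Cyp2j11 and Cyp2j5, and the leukotriene hydroxylase Cyp4f14. The 2 higher genes, named because of their values, were Cyp4f18, a leukotriene hydroxylase known from neutrophils, and Cyp3a13, of a subfamily that hydroxylates steroids and drugs. The median over the P450 genes was −0.78 on the log2 scale and that over all genes 0.04, and 17 lower and 6 higher P450 genes had groups that did not overlap, against 18.5% and 17.5% of all genes. Summed over the 88 genes, P450 FPKM was 3349, 2714 and 3796 in WT IR and 2902, 989 and 1445 in labelled Tet2-/- IR, so replicate 1 of the latter lay within the WT range. DESeq2 called 12 lower and 2 higher, that is 14.3% higher among the called genes against 28.6%. The count of lower genes was 2 without WT IR replicate 1 or 3 and 1 without labelled Tet2-/- IR replicate 2. No gene was called higher without WT IR replicate 1, 2 or 3 or without labelled Tet2-/- IR replicate 1 or 2, and 1 was without replicate 3.

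Cyp2j5, the only one of these 5 called in all 13 alternatives, had 278, 224 and 241 FPKM in WT IR and 87.7, 85.9 and 76.7 in labelled Tet2-/- IR (log2 fold change −1.67, standard error 0.18, adjusted p = 0.0104). Cyp2j11 had 60.4, 30.3 and 35.4 and 16.3, 9.20 and 9.04 (log2 fold change −1.96, standard error 0.34, adjusted p = 0.0209). Its call was lost without WT IR replicate 1 or 3 or labelled Tet2-/- IR replicate 2 or 3, at −2.02 to −1.63. Cyp7b1 had 74.8, 38.8 and 35.8 and 8.84, 4.83 and 1.41 (log2 fold change −3.41, standard error 0.64, adjusted p = 0.0244), a call lost without WT IR replicate 1 or 3 or labelled Tet2-/- IR replicate 2, at −3.56 to −3.02. For each of these genes the highest labelled Tet2-/- library lay under the lowest WT one.

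Cyp2c44 had 3.27, 1.16 and 1.03 FPKM in WT IR, where replicate 1 was highest, and 0.141, 0.223 and 0.265 in labelled Tet2-/- IR (log2 fold change −3.19, standard error 0.56, adjusted p = 0.0207). The call was lost without labelled Tet2-/- IR replicate 1 or 2, at −2.97 and −3.19, and with limma on log2(FPKM + 1), at −1.13. Cyp4f14 had 0.443, 0.439 and 0.363 and 0.168, 0.113 and 0.123 FPKM (log2 fold change −1.70, standard error 0.35, adjusted p = 0.0307), and its call was lost without any 1 of the 6 libraries, at −1.89 to −1.54, and with limma on log2(FPKM + 1), at −0.32. Cyp4f18 had 0.235, 0.157 and 0.102 and 0.743, 1.81 and 0.442 FPKM (log2 fold change 2.45, standard error 0.58, adjusted p = 0.0438), highest in labelled Tet2-/- IR replicate 2. Exons of Zfp961 on the opposite strand overlap those of Cyp4f18, and strand use in the counting was not given in the sources used here. Cyp3a13 had 0.208, 0.306 and 0.245 and 0.684, 0.727 and 1.39 FPKM (log2 fold change 1.82, standard error 0.42, adjusted p = 0.0406).

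Several abundant genes had large genotype differences after IR without a call. Cyp2d9 had 213, 83.4 and 279 FPKM in WT IR and 57.8, 11.3 and 22.9 in labelled Tet2-/- IR, at −2.76 (adjusted p = 0.0555), and Cyp2a4 was at −1.89 (adjusted p = 0.0529). Cyp2d9 passed in 5 of 13 alternatives, with adjusted p-values of 0.000139 (DESeq2) to 0.137, and Cyp2a4 in 6 of 13, with 0.000450 (DESeq2) to 0.150. Over the 13 the log2 fold changes were −3.59 to −2.30 for Cyp2d9 and −2.67 to −1.59 for Cyp2a4. The fit of all 12 libraries, the replicate block and limma on log2(FPKM + 0.1) were among the passing ones for both. Cyp2e1, Cyp4b1 and Cyp4a10 were at −1.21 (adjusted p = 0.253), −0.55 (adjusted p = 0.342) and −1.13 (adjusted p = 0.270). Cyp2a5 and Cyp4a14 were at −0.46 (adjusted p = 0.526) and −0.28 (adjusted p = 0.873), with the libraries of both groups overlapping. Cyp27a1 and Cyp2j13 had adjusted p-values under 0.05 but smaller differences, at −0.78 (adjusted p = 0.0336) and −0.87 (adjusted p = 0.0341). Of the 34 genes at 1 FPKM or more, labelled Tet2-/- IR replicate 1 was the highest of its group for 20 and replicate 2 the lowest for 18. Other groups were as uneven. At labelled Tet2-/- baseline replicate 1 was highest for 19 and replicate 2 lowest for 19. Replicate 2 was also lowest for 18 at WT baseline and for 17 in WT IR.

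**Figure D4:**
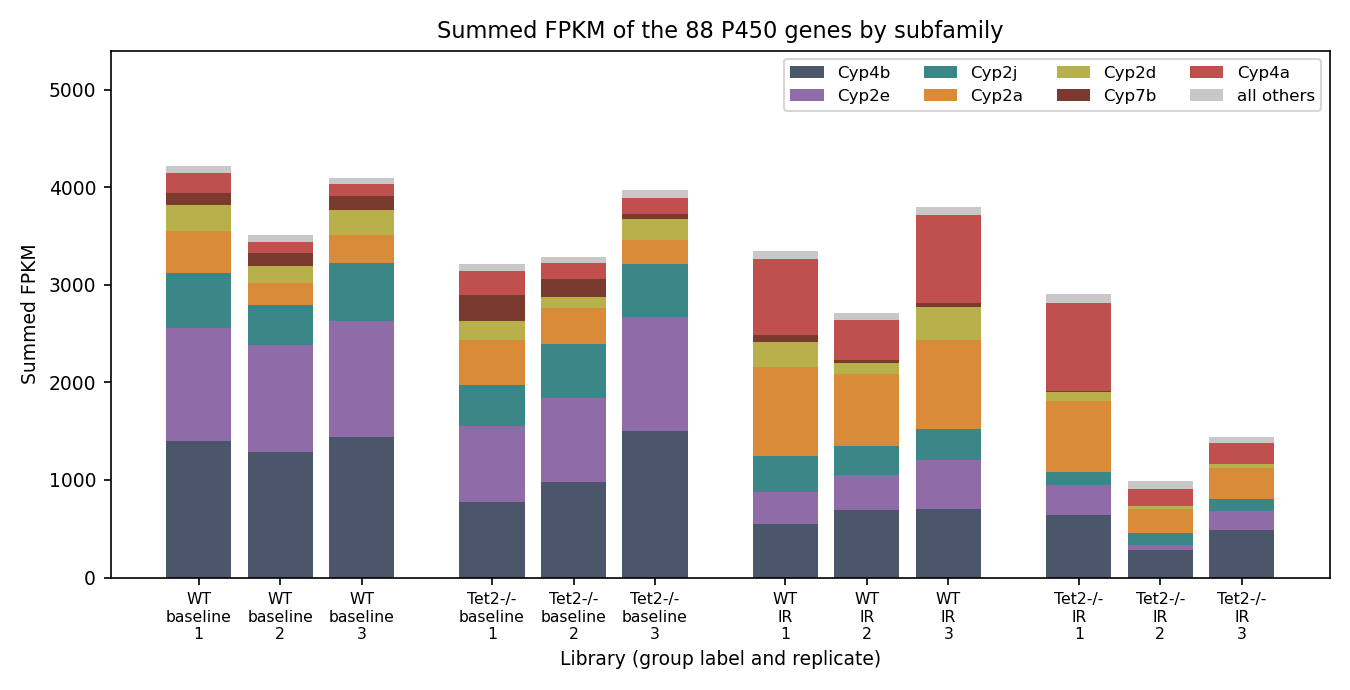
Summed FPKM of the 88 P450 genes in each of the 12 libraries, stacked by subfamily. The sums are 4217, 3516 and 4100.0 in WT baseline replicates 1 to 3, 3349, 2714 and 3796 in WT IR and 2902, 989 and 1445 in labelled Tet2-/- IR, with Cyp2a and Cyp4a taking more of it after IR and Cyp7b close to nothing in the last group.

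By subfamily, the summed FPKM of the 7 Cyp2j genes was 565, 413 and 598 in the 3 WT baseline libraries, 427, 547 and 540.4 at labelled Tet2-/- baseline, 376, 296 and 320.0 in WT IR and 134, 125 and 124 in labelled Tet2-/- IR. Each labelled Tet2-/- IR library lay far under every other one. The 9 Cyp2d genes summed to 259.5, 175 and 259 and 198, 114 and 213 at baseline, and to 256, 103 and 342 and 88.03, 27.6 and 44.3 after IR, so that the WT IR libraries spread around the baseline range and those labelled Tet2-/- lay under it. The 5 Cyp4a genes went the other way in WT, from 199, 114 and 118 at baseline to 777, 403 and 911 after IR. In the libraries labelled Tet2-/- they summed to 249, 157 and 167 at baseline and 905, 171 and 214 after IR, so replicates 2 and 3 lay within the baseline range and replicate 1 alone lay above it. The 4 Cyp2a genes summed to 314 ± 108 and 355 ± 108 at baseline (mean ± SD, n = 3), 853 ± 96.0 in WT IR and 431 ± 262 in labelled Tet2-/- IR. The sums of the 9 Cyp4f genes lay close together, at 24.9 ± 3.31, 27.9 ± 2.36, 23.8 ± 1.21 and 24.04 ± 1.07 in the same order. Single genes moved within these sums. Cyp4f13, the most abundant, had a mean of 20.8 FPKM at labelled Tet2-/- baseline and 13.4 in labelled Tet2-/- IR, and Cyp4f14, Cyp4f15 and Cyp4f18 moved as well.

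By role, the 22 epoxygenase genes stood at 526 ± 98.8 FPKM at WT baseline, 333 ± 42.4 in WT IR, 506 ± 67.3 at labelled Tet2-/- baseline and 128 ± 5.62 in labelled Tet2-/- IR. The 17 omega-hydroxylase genes stood at 1547 ± 105, 1369.9 ± 259, 1305 ± 346 and 928 ± 570.4 in the same order, with the widest spread in the last group. The 31 hydroxylase genes for foreign compounds and steroids stood at 1700.3 ± 180.4, 1505 ± 273, 1476 ± 143 and 692 ± 422. The 6 genes of sterol and bile acid enzymes stood at 163 ± 6.40, 70.2 ± 22.2, 198 ± 103 and 19.2 ± 3.07. These sums are dominated by their most abundant genes and were not tested.

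Whether the IR effect differed by genotype was tested as an interaction over all 12 libraries. It was called, at an adjusted p under 0.05, for 7 P450 genes that had a lower IR effect in the libraries labelled Tet2-/- and for 1 that had a higher one, of 52 tested. The shares of all 16741 genes were 5.38% and 3.78%, 9.16% in both directions. The medians were −0.62 on the log2 scale over the P450 genes and 0.10 over all genes. With the replicate number as a block 11 were lower and 1 was higher, where Cyp2a4, Cyp2d9, Cyp4a10 and Cyp2b9 were added, and with the block within each genotype 12 were lower, Cyp4a31 at −1.52 (adjusted p = 0.0433) among them. With the single block the values of Cyp2a4, Cyp2d9, Cyp4a10 and Cyp2b9 were −2.36 (adjusted p = 0.0115), −2.44 (adjusted p = 0.0257), −2.06 (adjusted p = 0.0396) and −2.86 (adjusted p = 0.0243). Without WT IR replicate 1 the lower calls numbered 3. The higher calls numbered 0 without labelled Tet2-/- baseline replicate 3 and 2 without WT baseline replicate 2.

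Cyp2j5 and Cyp4f14 kept the call in all 19 alternatives. For Cyp2j5 the log2 fold change was −0.55 in WT and −2.28 in the libraries labelled Tet2-/- (difference of log2 fold changes −1.70, standard error 0.28, adjusted p = 0.00685), and for Cyp4f14 it was −1.12 and −3.20 (difference of log2 fold changes −2.04, standard error 0.37, adjusted p = 0.00939). Cyp7b1 had −1.53 and −5.36 (difference of log2 fold changes −3.79, standard error 0.86, adjusted p = 0.0233), lost without labelled Tet2-/- baseline replicate 1 at −3.35 or WT IR replicate 1 at −3.41. Cyp2c44 had 0.94 and −2.30 (difference of log2 fold changes −3.20, standard error 0.65, adjusted p = 0.0149), lost with limma on log2(FPKM + 1) at −1.13. Its positive WT value was not called, and WT IR replicates 2 and 3 (1.16 and 1.03 FPKM) lay within the WT baseline range of 0.579 to 1.28. Cyp2j11 had −0.94 and −3.05 (difference of log2 fold changes −2.06, standard error 0.47, adjusted p = 0.0233), lost without WT IR replicate 1 at −1.75.

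The remaining calls were of smaller size. Cyp27a1 had −0.42 and −1.27 (difference of log2 fold changes −0.81, standard error 0.21, adjusted p = 0.0373), lost without any 1 of 8 of the 12 libraries at −0.85 to −0.73. Cyp4f13 had 17.2, 16.3 and 16.97 FPKM in WT IR and 14.1, 13.1 and 13.0 in labelled Tet2-/- IR, with log2 fold changes of −0.12 and −0.89 (difference of log2 fold changes −0.73, standard error 0.17, adjusted p = 0.0263), lost without any 1 of 6 of the 12 libraries at −0.78 to −0.67. Cyp4v3 was the single gene with a higher effect, at 0.22 and 1.70 (difference of log2 fold changes 1.52, standard error 0.32, adjusted p = 0.0183), lost without labelled Tet2-/- baseline replicate 3 at 1.38. For Cyp4a14, Cyp2a5 and Cyp2s1, which rose in both genotypes, the differences were −0.11 (adjusted p = 0.965), −0.22 (adjusted p = 0.870) and 0.03 (adjusted p = 0.970).

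**Figure D5:**
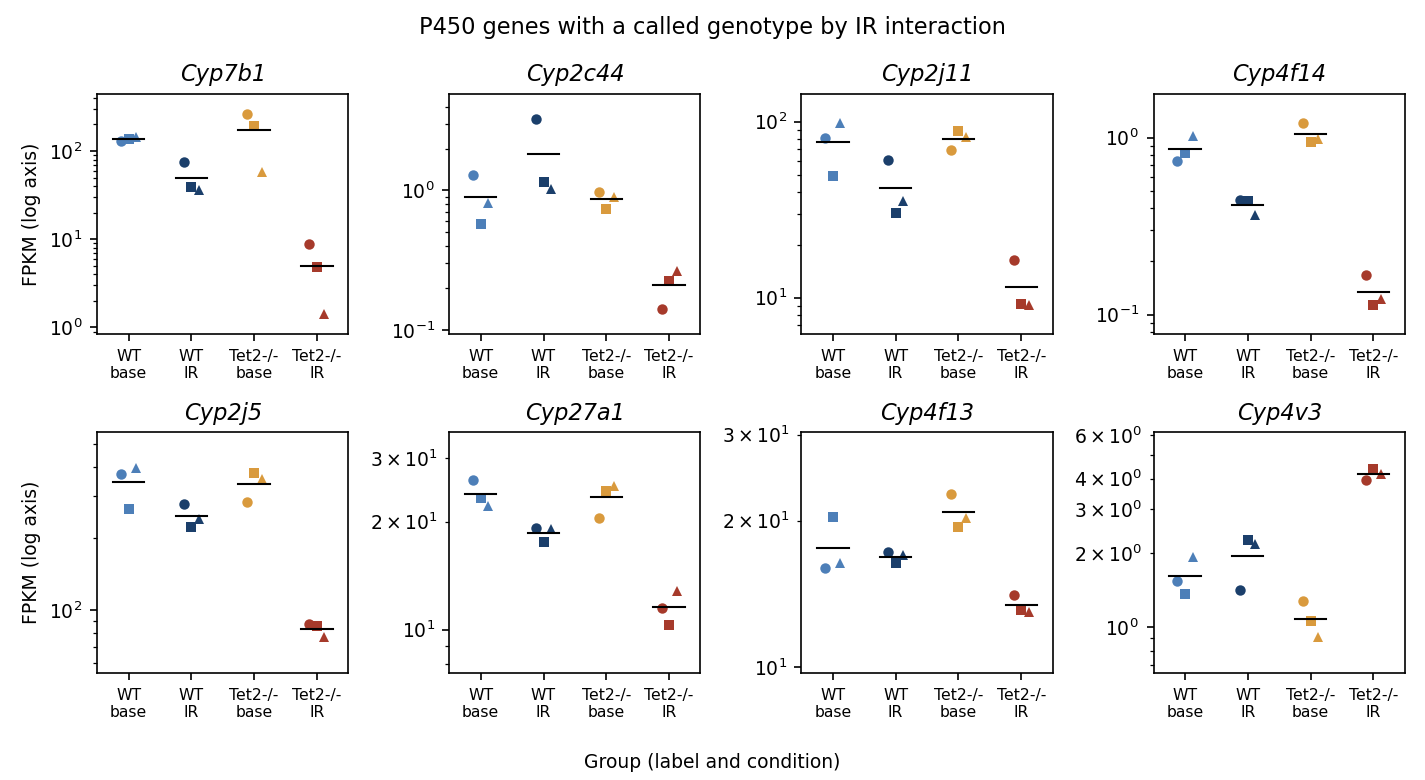
FPKM on a log axis of the 8 P450 genes with a called interaction, by group, with circles, squares and triangles for replicates 1, 2 and 3 and a bar at each mean (n = 3). In the labelled Tet2-/- IR group every library lies under all other 9 libraries for Cyp7b1, Cyp2c44, Cyp2j11, Cyp4f14, Cyp2j5, Cyp27a1 and Cyp4f13, and above them for Cyp4v3.

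Markers of the tubule and of blood cells changed in the same comparisons. Among all genes 3.85% were called lower and 2.30% higher in the genotype difference after IR, and 5.38% and 3.78% in the interaction. With IR in the libraries labelled Tet2-/- 11.6% were called lower and 12.7% higher. Of 15 proximal tubule markers 7 were called lower in the genotype difference after IR and 7 in the interaction, with medians of −1.59 and −1.52. Their summed FPKM in labelled Tet2-/- IR replicates 1, 2 and 3 was 3786, 1942 and 2940. The order of the replicates was that of the P450 sum in this group and in both baseline groups. It was not in WT IR, with 7744, 5132 and 7402 against P450 sums of 3349, 2714 and 3796. The 9 leukocyte markers summed to 10.3 to 18.7 FPKM at WT baseline, 8.13 to 24.98 at labelled Tet2-/- baseline, 22.8 to 31.1 in WT IR and 80.1 to 256 in labelled Tet2-/- IR, and 3 were called higher in the genotype difference after IR. The 4 tubular injury markers summed to 316 to 1094 in WT IR and to 2781 to 2984 in labelled Tet2-/- IR. Of these, 0 were called in the genotype difference after IR and 2 were called higher in the interaction. The 8 adipocyte markers summed to 59.8 to 279 at WT baseline, 38.7 to 72.4 at labelled Tet2-/- baseline, 15.05 to 72.8 in WT IR and 81.4 to 602 in labelled Tet2-/- IR, highest in replicate 3. None was called in the genotype difference after IR, and 4 were called higher in the interaction. Of the liver markers at most 1 was called in a direction in each comparison, and of the adrenal cortex markers 1 was called higher in labelled Tet2-/- IR against either its baseline or WT IR. The 8 markers of other nephron segments summed to 643 to 3025 in labelled Tet2-/- IR and to 1695 to 2312 in WT IR, and none was called between them. The part of these markers in the P450 changes was not tested.

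The calls among the genes that supply P450s with electrons and haem are to be read against the shares of all genes, 11.6% lower and 12.7% higher with IR in the libraries labelled Tet2-/- and 5.38% lower in the interaction. Of 7 electron donors none was called in WT, and Cyb5a (log2 fold change −1.41, standard error 0.23, adjusted p = 0.00245) and Fdxr (log2 fold change −1.21, standard error 0.17, adjusted p = 0.00135), which encode cytochrome b5 and ferredoxin reductase, fell in the libraries labelled Tet2-/-, where the median of the 7 was −0.77. Por had 159.7, 131 and 121 FPKM in WT IR and 124, 109 and 96.1 in labelled Tet2-/- IR, with a genotype difference of −0.42 (adjusted p = 0.157). Of 12 genes of haem synthesis and breakdown, 2 rose and 2 fell with IR in the libraries labelled Tet2-/- and none was called in WT, and the medians were 0.09 in both. The 12 summed to 348 to 375 FPKM at labelled Tet2-/- baseline and 691 to 1079 after IR, and to 349 to 369 and 457 to 576 in WT. The haem synthesis gene Uros was lower after IR, at 9.10 ± 1.28 FPKM (n = 3) in WT and 3.64 ± 1.23 in the labelled group (log2 fold change −1.44, standard error 0.23, adjusted p = 0.0175). It had a called interaction of −1.54 (adjusted p = 0.00541), as had Ppox at −1.19 (adjusted p = 0.0132) and Urod at −0.62 (adjusted p = 0.0472), both further steps of haem synthesis.

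Of 13 regulators of P450 genes 12 were tested, 2 fell with IR in the libraries labelled Tet2-/-, where the median was −0.51 and 11.6% of all genes were lower, and none was called in WT. In the genotype difference after IR 1 of 12 was called lower, against 3.85% of all genes, and in the interaction 2 of 12, against 5.38%, one of them the oxysterol receptor gene Nr1h3 at −1.05 (adjusted p = 0.0118). Hnf4a, which encodes a nuclear receptor of proximal tubule and liver, had 155, 148 and 147 FPKM in WT IR and 82.5, 97.3 and 101 in labelled Tet2-/- IR, at −0.78 (adjusted p = 0.0407), under the limit of the fold change. Ppara was at 0.61 (adjusted p = 0.315) with IR in WT and 0.69 (adjusted p = 0.0155) in the libraries labelled Tet2-/-. Of 12 PPARalpha targets outside the P450s, 4 rose with IR in WT, among them Acot1, Acot2 and Acaa1b, and 4 rose and 1 fell in the libraries labelled Tet2-/-, with medians of 0.57 and 0.96. Among all genes 1.46% rose in WT and 12.7% in the libraries labelled Tet2-/-, and 11 of the 12 were tested in WT. The 12 summed to 1467 to 1576 FPKM at labelled Tet2-/- baseline and to 3297, 795 and 1154 in labelled Tet2-/- IR replicates 1, 2 and 3, so replicate 1 lay above the baseline range and the others under it. Pdk4, which restrains glucose oxidation, was higher after IR in the labelled group at 3.57 (adjusted p = 0.0412) with an interaction of 3.46 (adjusted p = 0.0462). Acadm, the medium-chain acyl-CoA dehydrogenase, was lower at −1.76 (adjusted p = 0.0131) with an interaction of −2.20 (adjusted p = 0.00503). Of 11 enzymes that share the eicosanoid substrates, 2 of 10 tested rose with IR in the libraries labelled Tet2-/-, against 12.7% of all genes, and the cyclooxygenase gene Ptgs2 had a called interaction of 4.77 (adjusted p = 0.0139). Ephx2, the soluble hydrolase of epoxides, was at −0.98 (adjusted p = 0.0817) with IR in the labelled group and −0.61 (adjusted p = 0.382) between genotypes after IR.

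P450 genes lie in arrays, and neighbours did not always move alike. Among all genes 1.46% were higher and 0.887% lower with IR in WT, and 12.7% and 11.6% in the libraries labelled Tet2-/-. The array on mm9 chr4:95709351-96330810 holds the 7 Cyp2j genes, none of which was called higher in any comparison. The array on mm9 chr4:114781287-115320310 holds 7 genes, 5 of them tested, and within it Cyp4a14 and Cyp4a10 rose with IR in WT while Cyp4b1 fell. The array on mm9 chr7:26587495-27943583 holds 13 genes of the Cyp2a, Cyp2b, Cyp2f, Cyp2g, Cyp2s and Cyp2t subfamilies, with 2 of 8 tested higher with IR in WT, and 2 higher and 2 lower of 8 in the libraries labelled Tet2-/-. The 9 Cyp2d genes lie on mm9 chr15:82200957-82624675, with 3 of 6 tested lower with IR in the libraries labelled Tet2-/-. The 8 Cyp4f genes of mm9 chr17:32589668-33084306 held 2 lower genes of 7 tested in that comparison, while Cyp4f18, on chromosome 8, was higher. The 14 Cyp2c genes of mm9 chr19:39081509-40261776 had 1 tested gene at most, and Cyp2c44 lies apart from them.

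The 250 bases before each start were searched on both strands for short motifs, with the share of 24351 promoters of all genes in the tables as comparison. The direct repeat AGGNCANAGGNCA (DR1), bound by HNF4A and by PPARalpha with its partner RXR, was in 5 of 88 P450 promoters (5.68%) and in 0.329% of all promoters. These were Cyp2c44, Cyp2d9, Cyp2d10, Cyp2d34 and Cyp2d40, the last 4 of which come from 1 array of near-copies. The letters TATAAA were in 36.4% against 11.995% and CCAAT in 46.6% against 35.0%. The HNF4A core CAAAGTCC was in 13 of 88 (14.8%) against 1.26%, but 7 of these 13 are Cyp2c genes, and of the 34 genes at 1 FPKM or more 2 had it (5.88%), the near-copies Cyp2a4 and Cyp2a5. The STAT motif TTCNNNGAA was in 7.95% against 6.87%, the hypoxia core ACGTG in 6.82% against 17.4%, and the NF-kappaB form GGGNNNNNCC in 46.6% against 50.5%. Over the 34 genes at 1 FPKM or more the shares were 32.4% for TATAAA, 44.1% for CCAAT, 14.7% for the STAT motif, 11.8% for the hypoxia core and 61.8% for the NF-kappaB form, so the last lay above the share of all promoters here and under it over the 88. Of the 34 P450 genes at 1 FPKM or more, 3 had the DR1 letters, and these are printed as the expressed genes with this match. Cyp2c44 and Cyp2d10 reach 1 FPKM in WT IR alone, so the sign of their genotype difference after IR is partly set by this limit, and 30 of 45 tested P450 genes had a negative difference there. Each line gives the 250 bases before the start in mm9, read 5′ to 3′ on the strand of the gene, with the DR1 letters of either strand in capitals. The windows are chr19:44103738-44103987 for Cyp2c44, chr15:82282557-82282806 for Cyp2d9 and chr15:82237625-82237874 for Cyp2d10, and no annotated exon overlaps them.
Cyp2c44: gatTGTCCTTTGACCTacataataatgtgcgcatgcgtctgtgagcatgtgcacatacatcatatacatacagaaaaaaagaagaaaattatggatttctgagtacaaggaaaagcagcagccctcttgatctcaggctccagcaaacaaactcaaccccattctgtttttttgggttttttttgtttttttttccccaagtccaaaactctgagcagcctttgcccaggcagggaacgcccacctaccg
Cyp2d9: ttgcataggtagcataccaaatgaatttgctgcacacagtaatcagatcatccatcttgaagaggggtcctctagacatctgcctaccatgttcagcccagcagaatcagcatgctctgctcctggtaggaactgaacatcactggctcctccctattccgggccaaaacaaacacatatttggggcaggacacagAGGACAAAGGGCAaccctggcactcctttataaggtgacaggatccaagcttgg
Cyp2d10: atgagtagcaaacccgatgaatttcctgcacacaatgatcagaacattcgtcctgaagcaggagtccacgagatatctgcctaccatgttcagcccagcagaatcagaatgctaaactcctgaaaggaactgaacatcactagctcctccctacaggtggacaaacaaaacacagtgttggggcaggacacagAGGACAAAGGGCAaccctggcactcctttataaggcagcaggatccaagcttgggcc
Counted from the start, the repeat lay at −54 to −42 in Cyp2d9 and at −57 to −45 in Cyp2d10, with the same 13 letters, each ahead of a TATAAA match on the other strand. That of Cyp2c44 lay at −247 to −235, on the opposite strand. Cyp2d10 had 1.69, 0.606 and 1.72 FPKM in WT IR and 0.548, 0.0810 and 0.194 in labelled Tet2-/- IR, at −2.39 (adjusted p = 0.0977). Cyp4a14, Cyp4a10, Cyp2j5 and Cyp7b1 had no DR1 letters in this window, which says nothing of sites elsewhere.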

How the data were processed

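Total RNA of 12 kidneys was sequenced. For the alignment to mm9 the authors used STAR, and HOMER for counts per RefSeq transcript. Versions, strand use and the treatment of multiply mapped reads were not given in the sources used here. The deposited estimated counts come in steps of 0.5 (38.7% are not whole) and were rounded to whole numbers. The deposited FPKM values (fragments per kilobase, scaled to depth) were used for levels as they stand.

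Of 34600 transcripts the one with the highest total count stood for each of 24421 symbols. Each comparison was fitted to its own 6 libraries with edgeR 4.0.16 (R 4.3.3): TMM scaling, filterByExpr, quasi-likelihood test, and p-values adjusted after Benjamini and Hochberg across the whole table. Calls needed an adjusted p below 0.05 and a change of more than 1 log2 unit. The interaction was fitted to all 12 libraries and called at an adjusted p under 0.05. Alternatives were DESeq2 1.42.0, library sizes alone, no filter, limma 3.58.1 on log2(FPKM + 1) or log2(FPKM + 0.1), a replicate block, all 12 libraries in 1 fit, and each library left out. The scripts were tested on simulated data.

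Replicates are separate mice. Same-numbered libraries deviated together in the IR comparisons (correlations 0.333 to 0.342 in WT and 0.122 to 0.344 in the libraries labelled Tet2-/-), so the block is printed there where it changes a call. This pairing comes from the data, not from the labels. Named genes were the 15 with the highest group mean FPKM, the highest of each subfamily at 1 FPKM or more, and the 10 largest called changes per direction among genes at 1 FPKM or more. Genes outside this rule (Cyp2b9, Cyp2b23, Cyp2d10, Cyp2j6, Cyp2j8, Cyp2j9, Cyp2j12, Cyp3a13, Cyp4a32, Cyp4f15, Cyp4f18, Cyp11a1, Cyp17a1, Cyp21a1, Cyp26a1) were chosen after their values were seen. Some genes of the lists are not reported here. The members and lists were chosen with earlier results of these data known. Coding sequences (85 of 88 genes matched) and promoters came from GENCODE vM1 on NCBIM37, the same assembly as mm9.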

Additional observations from a re-analysis of the deposited data

Results flagged for a closer look

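The IR effect differed between the genotypes, by the interaction term of edgeR's quasi-likelihood test over 12 libraries, for 8 of 52 P450 genes tested, against 9.16% of all 16741 genes. The IR log2 fold change in the libraries labelled Tet2-/- minus that in WT was −3.79 (adjusted p = 0.0233) for Cyp7b1, −3.20 (adjusted p = 0.0149) for Cyp2c44, −2.06 (adjusted p = 0.0233) for Cyp2j11 and −2.04 (adjusted p = 0.00939) for Cyp4f14. It was −1.70 (adjusted p = 0.00685) for Cyp2j5, −0.81 (adjusted p = 0.0373) for Cyp27a1 and −0.73 (adjusted p = 0.0263) for Cyp4f13. It was positive for Cyp4v3 alone, at 1.52 (adjusted p = 0.0183). The labels of this genotype were not borne out by the Tet2 transcript at baseline. Of 15 proximal tubule markers 7 were called lower in the interaction, against 5.38% of all genes. Their part in these differences was not tested.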

How the results depend on the processing

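With 3 mice per group, calls in the WT comparisons often depended on 1 library. Of the named genes called, 1 of 8 kept the call under all 13 alternatives for IR in WT, 12 of 18 for IR in the libraries labelled Tet2-/-, and 1 of 5 for the genotype difference after IR, and 2 of 8 did under all 19 for the interaction. None of these named calls changed direction. The cause of the changes below was not tested.

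For IR in WT, DESeq2 gave 7 lower genes and the fit of all 12 libraries 2, against 4. Leaving out 1 library gave 0 to 3 higher and 1 to 3 lower. For IR in the libraries labelled Tet2-/-, library sizes alone gave 10 higher genes against 6, and limma on log2(FPKM + 1) gave 9 lower against 19. Leaving out 1 library gave 5 to 8 higher and 13 to 20 lower. At baseline DESeq2 gave 1 lower gene against 0. For the genotype difference after IR, DESeq2 gave 12 lower genes, the fit of all 12 libraries 11 and the replicate block 9, against 5, and limma on log2(FPKM + 1) gave 0 higher against 2. Leaving out 1 library gave 0 to 1 higher and 1 to 6 lower. For the interaction, DESeq2, no filter on low counts and limma with either pseudocount gave 2 higher genes against 1. The replicate block gave 11 lower genes, and the block within each genotype, added after the data were seen, gave 12, against 7. Leaving out 1 library gave 0 to 2 higher and 3 to 10 lower. Cyp2b10, not called in the genotype difference after IR, turned from 1.41 to −0.83 without labelled Tet2-/- IR replicate 1, and was 2.05 without WT IR replicate 3.

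Between genotypes at baseline the replicate numbers did not pair the libraries (correlations −0.172 to 0.0341). After IR the correlations of same-numbered libraries were −0.00138 to 0.291, which overlaps the 0.122 to 0.344 of IR in the libraries labelled Tet2-/-. The block added Cyp2d9, Cyp2d10, Cyp2a4 and Cyp2f2 as lower and Cyp4v3 as higher in the genotype difference after IR. Among the named genes, the block changed no call beyond those given here and beside the results.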
